A study of Mus musculus with 8 samples.

Results

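The comparison set the untreated GSK3β line against the untreated GSK3α line, 2 mouse embryonic stem cell lines that each carry 1 engineered form of the kinase GSK3, after 6 h without serum. Its members are the autosomal genes that had values in all 8 libraries of the series and a mean value of at least 1, which were 13335 of the 48321 genes listed. Of the other genes, 30833 had no value, 3267 autosomal genes with values had a mean under 1, and of the genes above that mean 515 on chromosome X, 10 on chromosome Y and 99 without a single chromosomal place were left out. Numbered gene models aside, Ifitm5 (mean 0.9992) lay just under that mean and Rbm46 (mean 1.0005) just over it. The study sequenced total RNA of E14 cells (strain 129/Ola) to ask how gene expression changes when 1 GSK3 paralog at a time is inhibited by chemical genetics. In the GSK3α line the Gsk3a gene was knocked out and the kinase came back as a transgene with the change L195G. In the GSK3β line Gsk3b was knocked out and a transgene supplied GSK3β with L132G. Each group had 2 libraries, and the untreated cells of both lines were kept for 6 h in N2B27 medium without serum. The 4 other libraries came from the same lines given 5 µM 3MB-PP1, a compound built to inhibit kinases with an enlarged ATP pocket, for 2 h.

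Each line is represented by 1 clone label (c2 for GSK3α, c1 for GSK3β), the promoters of the transgenes are not given in the sources used here, and no unmodified E14 cells are among the groups. The 2 lines therefore differ in the knocked-out gene, in the transgene and in whatever else separates 2 separately derived lines, and these cannot be told apart. Nothing in the labels says that the libraries of a group came from separate cultures, so the p-values measure only the spread between these libraries.

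GSK3α and GSK3β are paralogous serine/threonine kinases that are active in resting cells. They phosphorylate β-catenin for destruction, phosphorylate glycogen synthase, and are held in check by Wnt and by insulin signalling through AKT. In mouse embryonic stem cells, inhibition of both paralogs stabilises β-catenin, relieves repression by the factor TCF7L1 and favours the naive state of pluripotency, while ERK signalling pushes cells towards the formative state that precedes differentiation.

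The 2 engineered changes fall at the same place of the 2 paralogs, and the reference sequences around them are shown because they define the lines. Each line below is the coding strand of the mouse reference, 5′ to 3′, with the leucine codon named in the change in capitals. The transgenes' own sequences were not used here.
Gsk3a, codon 195: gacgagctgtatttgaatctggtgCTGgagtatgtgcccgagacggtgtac
Gsk3b, codon 132: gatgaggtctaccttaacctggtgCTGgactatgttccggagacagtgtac
The stretch of Gsk3a lies at chr7:25233631-25233681 on the minus strand, in exon 4 of 11, and that of Gsk3b at chr16:38184438-38184488 on the plus strand, in exon 4 of 12 (GENCODE M21 on GRCm38, which is mm10). In the 51 bases of each, 40 (78.4%) were the same.

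Each line had higher values of the paralog that its transgene supplies. Values throughout are the authors' scaled gene counts, and a log2 difference is that of the GSK3β line minus the GSK3α line on the scale log2(value + 1). Gsk3a (chromosome 7, 25228258 to 25237851, mm10) had values of 155 and 160.04 in the 2 untreated libraries of the GSK3α line and 77.9 and 76.2 in those of the GSK3β line. This was a log2 difference of -1.02 ± 0.034 (SE, adjusted p = 7.1e-14), with p-values from limma after Benjamini-Hochberg adjustment over all tested genes here and below. Gsk3b (chromosome 16, 38089001 to 38246084) had 58.2 and 54.7 in the GSK3α line and 235 and 256 in the GSK3β line, a log2 difference of 2.10 ± 0.043 (SE, adjusted p = 2.9e-17). The unmodified paralog was thus present in every library of both lines, and both groups of libraries stood clear of each other for each gene. Whether reads of the transgenes were counted to these genes was not tested, and reads of a transgene and of the knocked-out gene's own transcript cannot be told apart here.

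The lines differed at many genes by small amounts and at few genes by large ones. Of the 13335 genes, 6342 (47.6%) passed an adjusted p of 0.05, 2824 (21.2%) higher and 3518 (26.4%) lower in the GSK3β line. With each library scaled to the same total instead, the split was 3702 higher and 2730 lower, so the balance of directions is not fixed by these data. Genes past the threshold with a difference of at least 1.5-fold numbered 753 (5.65%), 352 (2.64%) higher and 401 (3.01%) lower. These counts depend on the pseudocount, since with 5 in place of 1 they were 119 and 170, and with 0.25 the lower ones were 604. Their balance turned with the scaling, to 415 higher and 297 lower with equal totals and 364 and 358 with median-of-ratios scaling. A 2-fold difference was reached by 71 higher and 41 lower genes, and a 4-fold difference by 4 and 2. The median difference of all tested genes was -0.02, with quartiles of -0.18 and 0.13.

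The libraries of a group lay close together, and differences well under 1.5-fold passed the test. Reads per untreated library, estimated from the smallest value in each, ranged from 21.5 to 28.9 M. The estimate takes that value as 1 read and is rough, since only 65.6% to 67.6% of the values checked were near whole multiples of it. Within a group the 2 untreated libraries had a Pearson correlation of 0.998 across genes in both lines, and their log2 values differed with an SD of 0.141 in the GSK3α line and 0.138 in the GSK3β line. The SD of the difference between the lines was 0.293, and the median SE of a gene's difference was 0.0629. At 71.8% of the genes both libraries of 1 line lay above both of the other. The called genes named below with values from each library were all separated in this way, which for the 15 largest differences in each direction was a condition of being named. Separation was thus the usual state and does not by itself set a gene apart.

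The genes with the largest differences towards lower values in the GSK3β line were led by an imprinted RNA. H19, a maternally expressed imprinted non-coding RNA (chromosome 7, 142575529 to 142578143), had values of 37 and 36.3 in the GSK3α line and 5.67 and 4.07 in the GSK3β line, a log2 difference of -2.70 ± 0.095 (SE, adjusted p = 1.1e-13). Bhmt (chromosome 13, 93616675 to 93637961), which makes methionine from homocysteine and betaine, had 16.9 and 16.6 against 3.09 and 3.53, a log2 difference of -2.05 ± 0.085 (SE, adjusted p = 8.7e-13). Its near neighbour Dmgdh, which breaks down the dimethylglycine that Bhmt makes, had 6.94 and 5.69 against 1.72 and 2.33, a log2 difference of -1.28 ± 0.13 (SE, adjusted p = 1.5e-07). Values of Dmgdh were low in both lines. Sfn, the epithelial 14-3-3σ protein (chromosome 4, 133600556 to 133602168), had 40.8 and 41.8 against 12.2 and 12.4, a log2 difference of -1.67 ± 0.057 (SE, adjusted p = 8.3e-14). Neat1, the nuclear RNA that scaffolds paraspeckles (chromosome 19, 5824708 to 5845478), had 60.6 and 73.5 against 23.6 and 19.8, a log2 difference of -1.58 ± 0.086 (SE, adjusted p = 3.2e-11). The epithelial clathrin adaptor subunit Ap1m2 had 22.1 and 23.3 against 8.25 and 7.47, a log2 difference of -1.42 ± 0.076 (SE, adjusted p = 2.8e-11).

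Others among the 15 largest differences in this direction were Mgmt, which removes alkyl groups from guanine in DNA (-1.28, adjusted p = 4.9e-11), the phosphoinositide phosphatase Synj2 (-1.24, adjusted p = 1.3e-09), the HIF-induced Ndufa4l2 (-1.28, adjusted p = 5.9e-09), the endoplasmic reticulum shaping protein Reep1 (-1.18, adjusted p = 4.9e-11) and the sialyltransferase St8sia6 (-1.18, adjusted p = 2.4e-09). The mitochondrial adenylate kinase Ak4 stood out by its level, with values of 436 and 439 in the GSK3α line and 182 and 204 in the GSK3β line, a log2 difference of -1.18 ± 0.044 (SE, adjusted p = 2.9e-13). The myelin gene Mobp had 7.87 and 7.19 against 2.62 and 2.92, a log2 difference of -1.18 ± 0.10 (SE, adjusted p = 1.9e-08). The semaphorin Sema4g, which lies in a run of lowered genes on chromosome 19 described below, had 17.1 and 17.1 against 6.68 and 6.8, a log2 difference of -1.23 ± 0.075 (SE, adjusted p = 1.5e-10).

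Among the largest differences towards higher values in the GSK3β line was that of a meiotic gene. Smc1b, the meiotic cohesin subunit (chromosome 15, 85064689 to 85131964), had 12.9 and 12.2 in the GSK3α line and 67.1 and 65.7 in the GSK3β line, a log2 difference of 2.31 ± 0.051 (SE, adjusted p = 8.8e-17). Rph3a, a synaptic vesicle protein, had 1.07 and 0.766 against 9.73 and 9.17, a log2 difference of 2.45 ± 0.12 (SE, adjusted p = 4.1e-12). Gap43, a growth cone protein of axons, had 1.25 and 1.32 against 7.19 and 6.47, a log2 difference of 1.78 ± 0.12 (SE, adjusted p = 4.9e-10). Rph3a and Gap43 were at or near a value of 1 in the GSK3α line. Arhgdib, known from blood cells, had 16.1 and 16.7 against 52.7 and 50.9, a log2 difference of 1.60 ± 0.056 (SE, adjusted p = 1.1e-13). Nckap1l, the blood-cell subunit of the WAVE actin complex, had 6.005 and 6.17 against 17 and 17.3, a log2 difference of 1.36 ± 0.078 (SE, adjusted p = 7.2e-11). Cyp2b23 (2.18 and 1.45 against 17 and 16, a log2 difference of 2.65 ± 0.11 SE, adjusted p = 1.4e-12), Oas1a (5.15 and 5.92 against 20.6 and 21.5, a log2 difference of 1.76 ± 0.10 SE, adjusted p = 5.8e-11) and Trim12c (5.49 and 4.97 against 14.6 and 14.3, a log2 difference of 1.31 ± 0.090 SE, adjusted p = 8.4e-10) belong to families of near-identical copies, and how the authors' counting split reads among the copies is not given in the sources used here. The remaining leading genes were Msln (1.86, adjusted p = 2.2e-09), the citrate transporter Slc13a5 (1.43, adjusted p = 6.2e-09), the thyroid hormone deiodinase Dio3 (1.36, adjusted p = 9.6e-08), the apolipoprotein Apom (1.31, adjusted p = 2.2e-08), and Fbp2 and Tgfbi in a run on chromosome 13. Low values make the size of a difference depend on the pseudocount, and with 5 in place of 1 Cyp2b23 differed by 1.66 and Rph3a by 1.29.

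**Figure D1:**
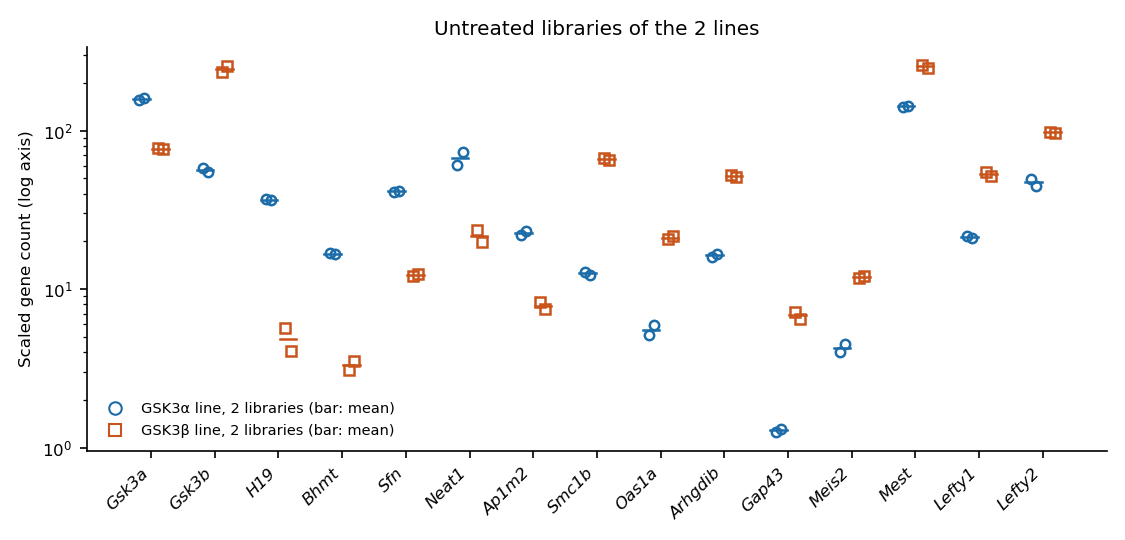
Scaled gene counts (log axis) of 15 genes in the 4 untreated libraries: circles are the GSK3α line, squares the GSK3β line, bars the mean of 2 libraries. H19 lay at 37.0 and 36.3 in the GSK3α line against 5.67 and 4.07 in the GSK3β line, and libraries of a line lay close together beside the distance between the lines.

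A share of the differences was arranged along chromosomes. Tested genes were ordered along each autosome and a running median of the difference was taken over 21 genes, and stretches of at least 21 genes with a median of at least 0.3 in size were called runs. There were 5, on chromosomes 4, 7, 13, 14 and 19. Since the differences themselves chose them, their values are a description. The 414 genes of the runs were 3.10% of those tested and held 54 (15.3%) of the 352 higher and 120 (29.9%) of the 401 lower genes past 1.5-fold.

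The longest was at the end of chromosome 19, from 34192229 to 61228429, a stretch of 27.0 Mb with 176 tested genes from Stambpl1 to Csf2ra. Its median difference was -0.55, or 1.46-fold lower in the GSK3β line, with quartiles of -0.68 and -0.40. The difference was below 0 for 165 of the 176 genes, and 155 passed the threshold as lower. The 21 tested genes before it had a median of 0.10, so the step at its edge was abrupt. Between single libraries of the lines, the median of the run lay between -0.57 and -0.53 in all 4 pairings.

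The run of chromosome 7 had the same direction in the middle of the chromosome. It spanned 24.2 Mb from 73676880 to 97912381 with 127 tested genes, and its median was -0.47 (1.39-fold lower), against 0.03 and 0.05 in the 21 genes on each side. Of its genes, 116 had a difference below 0 and 98 passed as lower. The run of chromosome 13 went the other way. It spanned 10.8 Mb from 55635027 to 66441118, and 51 of its 53 genes had a difference above 0, 50 passed as higher and 41 of these by at least 1.5-fold. Its median of 0.86 was 1.81-fold, with flanks of 0.04 and -0.15.

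The other 2 runs held mostly gene models without a described function. On chromosome 4, from 145601963 to 147947314, 37 genes had a median of -0.38, and 29 of them were numbered Gm or Rik models and 3 named zinc finger genes. On chromosome 14, from 3049285 to 7174533, 21 genes had a median of 0.64, and all 21 were such models. Both regions are rich in near-identical copies, so their counts are uncertain. Chromosome 4 also showed a shallow shift over a wider stretch. From 130 Mb to its end, 347 genes had a median of -0.23, with 294 below 0, while the 581 genes before that point had a median of 0.01. Of the genes named here Sfn, Lin28a, Id3, E2f2 and Agrn lie in it. On chromosome 8 a smaller shift went the other way from 85 Mb to the end, where 319 genes had a median of 0.16, with 240 above 0, and the 404 genes before had a median of -0.03. Itgb1 lies there. Both boundaries were chosen after the values were seen.

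**Figure D2:**
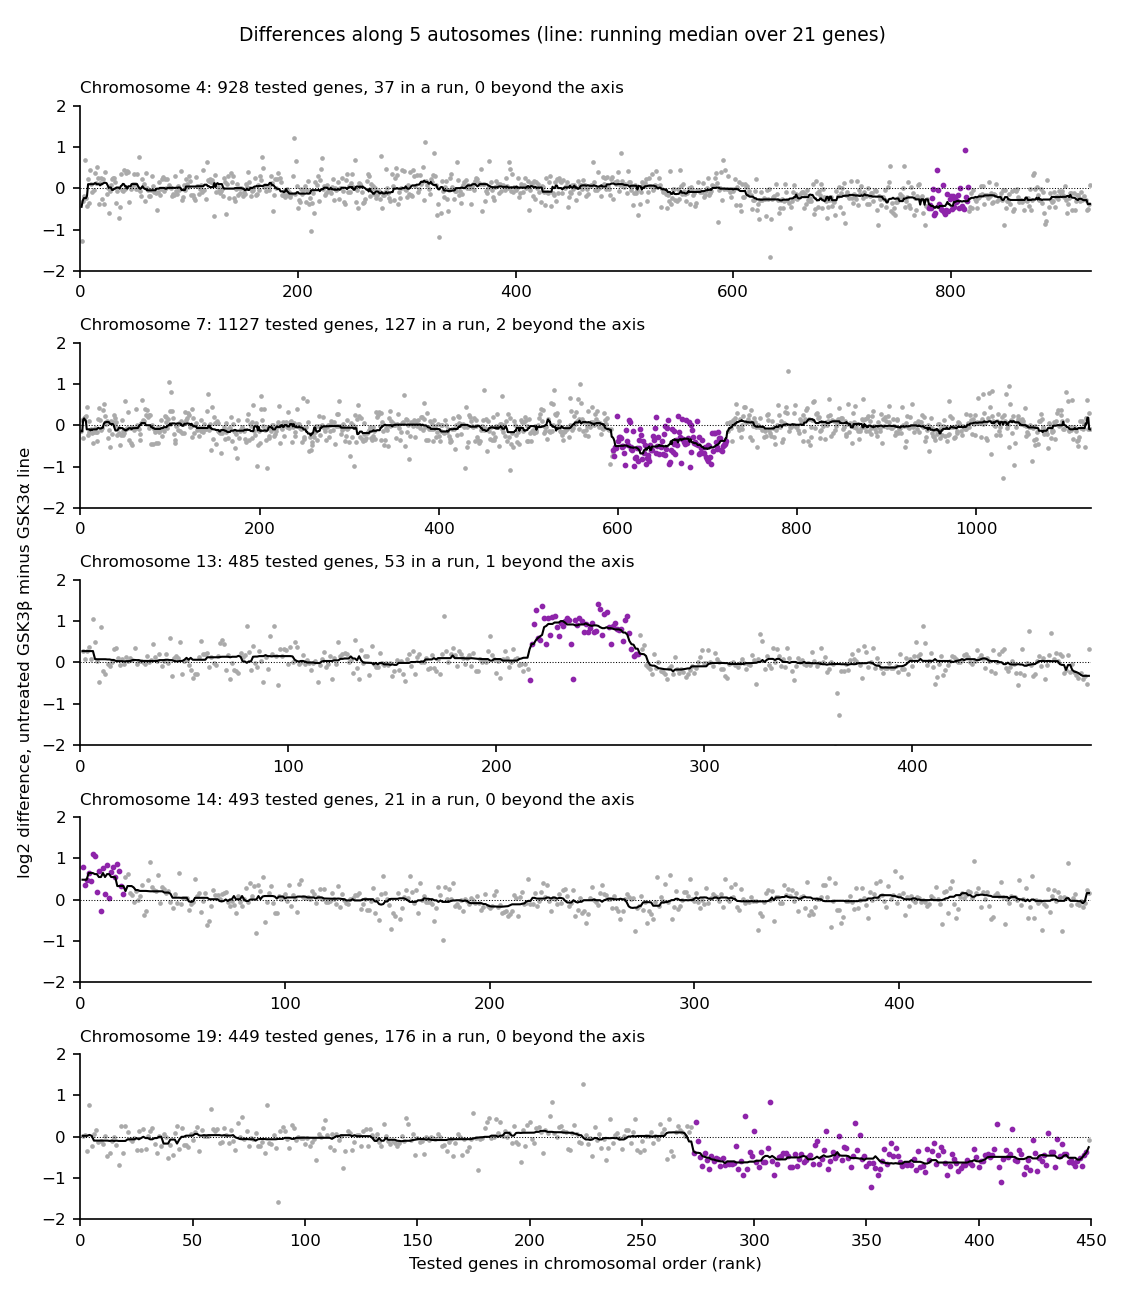
Log2 difference of each tested gene (GSK3β minus GSK3α line, untreated) against its rank in chromosomal order on 5 autosomes, with genes of the runs in purple and the running median over 21 genes as a black line. The line drops to about the run medians of -0.47 on chromosome 7 and -0.55 at the end of chromosome 19 and climbs to that of 0.86 on chromosome 13.

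Several signalling genes lay in these stretches. On chromosome 13 the Hedgehog receptor Ptch1 (chromosome 13, 63508328 to 63573598) had 29 and 29.2 in the GSK3α line and 68.3 and 70.6 in the GSK3β line, a log2 difference of 1.23 ± 0.043 (SE, adjusted p = 1.1e-13). Its co-receptor Gas1 had 1.69 and 1.06 against 3.67 and 4.23, a log2 difference of 1.07 ± 0.15 (SE, adjusted p = 7.9e-06). The BMP effector Smad5 had 15.1 and 17.3 against 36.5 and 34.1, a log2 difference of 1.08 ± 0.078 (SE, adjusted p = 2.0e-09). All 3 lay above the upper quartile of their run, which was 1.03, but Gas1 and Smad5 by less than their SE. Values of Gas1 were low, and with a pseudocount of 5 in place of 1 it differed by 0.49. Fbp2, a fructose bisphosphatase, had 6.94 and 8.12 against 21.9 and 21.4, and the matrix protein Tgfbi had 2.58 and 3.83 against 9.42 and 10.1, differences of 1.41 and 1.37. On chromosome 19 lay the glycolytic enzyme Pgam1, with 1574 and 1583 against 968 and 933, a log2 difference of -0.73 ± 0.029 (SE, adjusted p = 5.3e-13). The tankyrase Tnks2, which marks the scaffold protein Axin for destruction, had 576 and 565 against 369.98 and 381, a log2 difference of -0.60 ± 0.032 (SE, adjusted p = 2.3e-11). The germ cell gene Tdrd1 (-0.81, adjusted p = 3.2e-06), the respiratory subunit Ndufb8 (-0.46, adjusted p = 7.0e-09), the MYC antagonist Mxi1 (-0.41, adjusted p = 1.3e-05) and the GSK3-binding protein Frat2 (-0.40, adjusted p = 0.0010) were lower there as well. On chromosome 7 the p53 target Aen had 312 and 324 against 202 and 198, a log2 difference of -0.67 ± 0.031 (SE, adjusted p = 3.6e-12). The Hedgehog regulator Kif7 had 29 and 31 against 16 and 17.6, a log2 difference of -0.80 ± 0.064 (SE, adjusted p = 8.9e-09). DNA copy number was not measured in this series, and its part in the runs was not tested. Outside the runs 46.3% of the genes passed the threshold, and 298 higher and 281 lower genes passed with at least 1.5-fold.

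Both lines carried the pluripotency network at high level, with modest differences. Of the 12 tested core pluripotency genes, 2 passed as higher and 7 as lower, beside 21.2% and 26.4% of all genes. None passed by 1.5-fold, and the list's median was -0.10 against -0.02 over all tested genes. With equal totals 3 core genes passed as higher and 4 as lower. Pou5f1, which encodes OCT4, had 1366 and 1403 in the GSK3α line and 1478 and 1442 in the GSK3β line and was not called (0.08, 95% interval 0.01 to 0.14, adjusted p = 0.050). Equal totals brought it past the threshold at 0.13. Sox2 had 373 and 373 against 345 and 343, a log2 difference of -0.12 ± 0.029 (SE, adjusted p = 0.0022), a call that equal totals ended (-0.07, adjusted p = 0.052). Nanog had 829.7 and 826 against 868 and 897, a log2 difference of 0.09 ± 0.029 (SE, adjusted p = 0.015), and it lost the call without the second untreated library of either line (adjusted p = 0.057 and 0.10). The larger core differences were in Lin28a, which blocks let-7 microRNAs and lies in the shifted stretch of chromosome 4, where the running median was -0.27 (341 and 358 against 284 and 287, a log2 difference of -0.29 ± 0.030 SE, adjusted p = 2.5e-07), and in the zinc finger factor Zfp281 (179.9 and 177 against 152 and 153, a log2 difference of -0.23 ± 0.032 SE, adjusted p = 9.8e-06).

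Naive pluripotency genes were more often lower than higher in the GSK3β line. Of 26 tested members, 16 passed as lower and 7 as higher, beside 26.4% and 21.2% of all genes. In all 88.5% of the list was called, beside 47.6% of all genes. The list's median was -0.19, and with equal totals 15 members passed as lower and 9 as higher. Dppa3, also known as Stella, an oocyte and germ cell factor, had 7.92 and 6.97 against 2.78 and 2.72, a log2 difference of -1.17 ± 0.11 (SE, adjusted p = 6.0e-08). Sox15 had 23.9 and 23.9 against 14.3 and 11.4, a log2 difference of -0.85 ± 0.081 (SE, adjusted p = 7.7e-08). Zfp42, the naive marker Rex1 (chromosome 8, 43295063 to 43306980), had 739 and 780.2 against 575 and 591, a log2 difference of -0.38 ± 0.033 (SE, adjusted p = 2.4e-08). These 3 were separated between the lines, as were 71.8% of all tested genes. So were Zfp57, which guards imprints (352 and 373 against 256 and 256, a log2 difference of -0.50 ± 0.037 SE, adjusted p = 2.3e-09), and the differently directed Pramel7 (4.72 and 4.64 against 8.83 and 8.88, a log2 difference of 0.80 ± 0.096 SE, adjusted p = 1.7e-06). Other factors of the naive network differed little. Tfcp2l1 had 246 and 238 against 203 and 223, a log2 difference of -0.19 ± 0.044 (SE, adjusted p = 0.0019), which became -0.12 without the first untreated GSK3β library. Klf4 had 139 and 141 against 128 and 128, a log2 difference of -0.13 ± 0.032 (SE, adjusted p = 0.0027). Esrrb (589.5 and 593 against 541 and 573, -0.09) and Klf2 (123 and 122 against 129 and 129.8, 0.08) passed only barely, at adjusted p = 0.032 and 0.044. Esrrb lost its call without either untreated GSK3α library or without the first untreated GSK3β library, with adjusted p from 0.071 to 0.30. Klf2 lost it without any 1 of the 8 libraries, with adjusted p from 0.054 to 0.14.

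Genes of the formative and primed epiblast leaned the other way. Of 21 tested members, 10 passed as higher and 3 as lower, beside 21.2% and 26.4% of all genes. By at least 1.5-fold 5 were higher, beside 2.64% of all genes. The list's median was 0.10, and with equal totals 12 members passed as higher and 3 as lower. Pou3f1, the POU factor OCT6 of the formative state (chromosome 4, 124656807 to 124660655), had 8.36 and 7.61 in the GSK3α line and 16.8 and 13.9 in the GSK3β line, a log2 difference of 0.86 ± 0.10 (SE, adjusted p = 1.3e-06). Fgf5, the classical epiblast marker, had 2.4 and 2.47 against 4.53 and 3.94, a log2 difference of 0.61 ± 0.12 (SE, adjusted p = 4.3e-04). Fgf15 had 8.41 and 9.9 against 16 and 13, a log2 difference of 0.61 ± 0.10 (SE, adjusted p = 8.6e-05). The libraries of the lines did not overlap at these 3 genes, which was so at 71.8% of all tested genes, and the values of Fgf5 are low. The tight junction gene Cldn6 went against the list, at 42.3 and 41.2 against 21 and 18.9, a log2 difference of -1.03 ± 0.059 (SE, adjusted p = 6.7e-11). Otx2, a factor of the formative state, was not called (63.8 and 66.3 against 67.1 and 70.5, 0.08, 95% interval -0.01 to 0.17, adjusted p = 0.13), although equal totals brought it past the threshold (0.13). Dnmt3b, a de novo DNA methyltransferase that rises in the epiblast, had 236 and 240.3 against 254 and 257, a log2 difference of 0.10 ± 0.029 (SE, adjusted p = 0.0077), and the call was lost without the first untreated GSK3α library (adjusted p = 0.054).

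Feedback genes of ERK signalling were mostly lower in the GSK3β line. These genes are switched on by ERK, and many encode brakes on it, such as the Sprouty, Spred and DUSP proteins. Of 23 tested members, 15 passed as lower and 2 as higher, and the median of -0.28 was the lowest of the 39 lists. Calls made up 73.9% of the members, beside 47.6% of all genes. Spry4 (chromosome 18, 38586247 to 38601415) had 66.2 and 71.5 in the GSK3α line and 47.8 and 47.1 in the GSK3β line, a log2 difference of -0.53 ± 0.047 (SE, adjusted p = 4.1e-08). Phlda1 had 11.5 and 11.4 against 7.39 and 7.46, a log2 difference of -0.56 ± 0.090 (SE, adjusted p = 4.7e-05). Ier3 had 5.92 and 6.76 against 3.64 and 3.14, a log2 difference of -0.74 ± 0.11 (SE, adjusted p = 3.3e-05). The lines did not overlap at these 3, which was so at 71.8% of all tested genes. The ETS factor Etv1 was higher, at 27.4 and 27.9 against 40.4 and 41.3, a log2 difference of 0.54 ± 0.052 (SE, adjusted p = 8.7e-08). Dusp6, a phosphatase of ERK often used as its readout, was not called (52.6 and 55.7 against 51.1 and 49.3, -0.11, 95% interval -0.22 to -0.001, adjusted p = 0.090).

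Upstream of ERK the FGF ligand that embryonic stem cells make was slightly higher. Fgf4 had 232 and 228 against 267 and 256, a log2 difference of 0.19 ± 0.032 (SE, adjusted p = 1.0e-04). The receptor Fgfr2 had 7.41 and 6.5 against 10.3 and 12.9, a log2 difference of 0.66 ± 0.11 (SE, adjusted p = 7.0e-05). Ptpn11, the phosphatase SHP2 that carries the receptor signal to RAS (chromosome 5, 121130533 to 121191397), was lower, at 90.2 and 93.9 against 49.6 and 55.7, a log2 difference of -0.80 ± 0.047 (SE, adjusted p = 1.2e-10). Of the 20 tested FGF ligands, receptors and adaptors, 8 passed as higher and 2 as lower (50% called, beside 47.6% of all genes).

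The inhibitors of Nodal differed most within their pathway. Nodal is a TGFβ-family ligand that induces its own antagonists Lefty1 and Lefty2. Lefty1 (chromosome 1, 180935022 to 180938400) had 21.7 and 21 in the GSK3α line and 54.9 and 51.8 in the GSK3β line, a log2 difference of 1.28 ± 0.070 (SE, adjusted p = 3.4e-11). Lefty2 (chromosome 1, 180893108 to 180899103) had 49.4 and 44.9 against 98.3 and 97.2, a log2 difference of 1.04 ± 0.047 (SE, adjusted p = 2.9e-12). Nodal itself had 116 and 117 against 138 and 129, a log2 difference of 0.19 ± 0.037 (SE, adjusted p = 2.8e-04). All 3 were higher in both GSK3β libraries than in both GSK3α libraries, the ligand by far less than its antagonists. Such separation, in 1 direction or the other, was seen at 71.8% of all tested genes. The type I receptor Acvr1b was lower (63.3 and 63.6 against 43.4 and 49.7, a log2 difference of -0.44 ± 0.051 SE, adjusted p = 8.8e-07). Of the 22 tested members, 9 passed as higher and 3 as lower (54.5% called, beside 47.6% of all genes), with a median of 0.06.

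In the BMP branch the ligand Bmp4 and the ID genes Id1 and Id3 were lower. Bmp4 (chromosome 14, 46383520 to 46390669) had 27.1 and 29.6 against 13.5 and 14.4, a log2 difference of -0.97 ± 0.066 (SE, adjusted p = 8.2e-10). Id3 had 58.9 and 61.2 against 36.7 and 35, a log2 difference of -0.73 ± 0.044 (SE, adjusted p = 1.2e-10). Id1 had 14.3 and 14 against 9.89 and 9.36, a log2 difference of -0.51 ± 0.081 (SE, adjusted p = 4.2e-05). The ID genes encode inhibitors of differentiation factors and are direct targets of BMP signalling. The other listed ones, Id2 (0.10, adjusted p = 0.49) and Id4 (0.05, adjusted p = 0.74), were not called. With Smad5 of the chromosome 13 run counted, 5 of 17 tested members passed as higher and 4 as lower, and without it 4 and 4. With Smad5 52.9% were called, beside 47.6% of all genes.

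**Figure D3:**
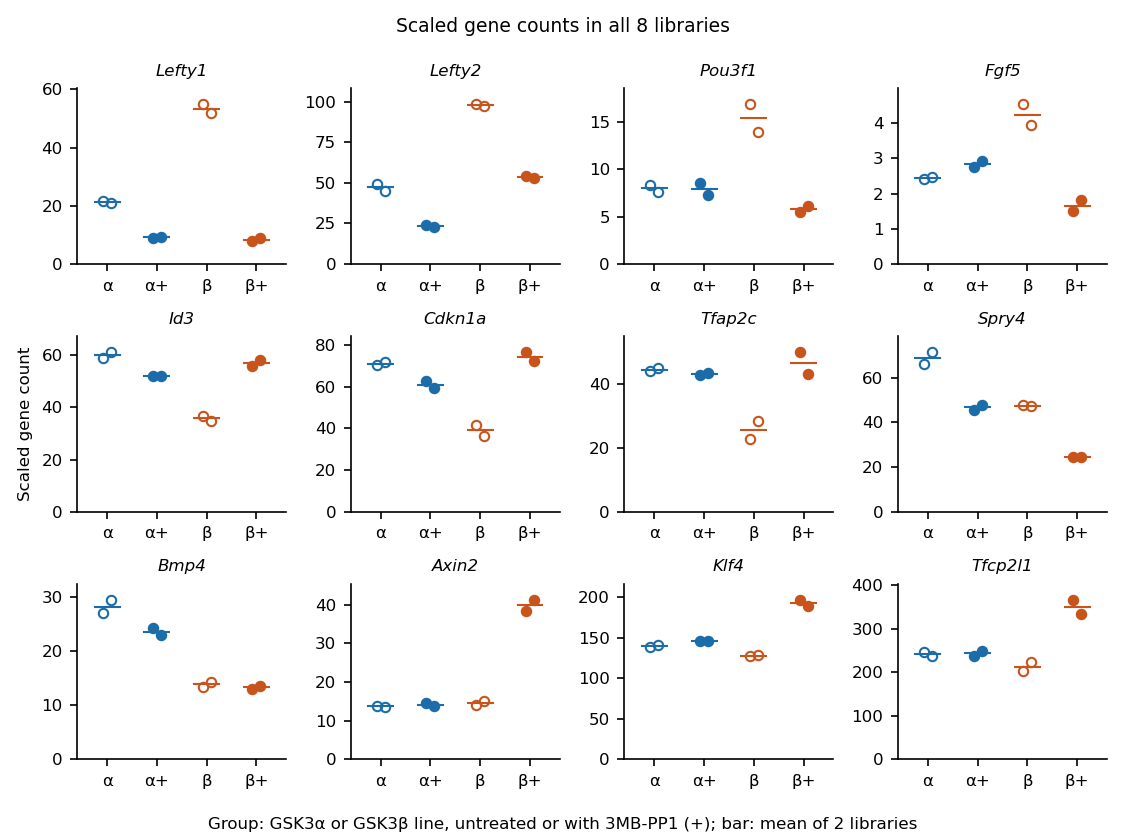
Scaled gene counts of 12 genes in all 8 libraries: open circles are untreated, filled circles had 3MB-PP1, blue is the GSK3α line, orange the GSK3β line, and bars are means of 2 libraries. Lefty1, Id3 and Cdkn1a differed between the untreated lines and much less, or the other way, with the inhibitor, while Lefty2 and Bmp4 kept their difference.

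Of the direct readouts of β-catenin 35.3% were called between the untreated lines, against 47.6% of all genes. Of 17 tested targets, 1 passed as higher, 5 as lower and 11 in neither direction, and the median was -0.03. Axin2, the most general of them (chromosome 11, 108920349 to 108950783), had 13.9 and 13.7 in the GSK3α line and 14 and 15.1 in the GSK3β line and was not called (0.07, 95% interval -0.06 to 0.21, adjusted p = 0.37). The mesoderm factor T, also called Brachyury (chromosome 17, 8434423 to 8442496), was low, at 3.78 and 3.23 against 0.586 and 0.93, a log2 difference of -1.36 ± 0.14 (SE, adjusted p = 2.1e-07). Notum, a secreted enzyme that inactivates Wnt ligands, had 43.6 and 44.1 against 23.6 and 23.8, a log2 difference of -0.86 ± 0.050 (SE, adjusted p = 9.1e-11). Nkx1-2 had 1.29 and 0.978 against 0.274 and 0.378, a log2 difference of -0.68 ± 0.15 (SE, adjusted p = 0.0012). Sp5 was under 1 in all 4 libraries (0.801 and 0.595 against 0.156 and 0.256, -0.49, adjusted p = 0.016), and it lost its call without the first library of either line, at adjusted p = 0.10 for the GSK3α line and 0.084 for the GSK3β line. The 5 listed targets under the filter, among them Cdx2, had untreated values of at most 0.641.

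The differences of β-catenin itself and of the repressor TCF7L1 were small. Ctnnb1, which encodes β-catenin, had 921 and 918 against 879 and 881 and was not called (-0.06, 95% interval -0.12 to -0.01, adjusted p = 0.066). Tcf7l1 had 98.8 and 112 against 119 and 122, a log2 difference of 0.19 ± 0.045 (SE, adjusted p = 0.0016), which became 0.10 without the first untreated GSK3α library (adjusted p = 0.056). Of the 16 tested genes of GSK3 and the destruction complex, 2 passed as higher and 6 as lower, and 4 of those 6 lay in the chromosome 19 run. Among ligands, receptors and TCF factors 5 of 34 tested members passed as higher and 9 as lower. Calls made up 41.2% of this list and 50% of the destruction complex list, beside 47.6% of all genes. Wnt6 had 5.74 and 6.29 against 3.05 and 3.59, a log2 difference of -0.70 ± 0.11 (SE, adjusted p = 3.9e-05). The secreted Wnt binder Sfrp2 had 11.7 and 11.8 against 16.2 and 17.1, a log2 difference of 0.47 ± 0.069 (SE, adjusted p = 1.8e-05). Gys1, the muscle-type glycogen synthase and thus the enzyme from which GSK3 takes its name, had 37.5 and 41.1 against 27.9 and 29.4, a log2 difference of -0.44 ± 0.056 (SE, adjusted p = 3.3e-06). The other leading glycogen genes, the phosphorylase Pygm (-0.75, adjusted p = 8.5e-06) and the phosphoglucomutase Pgm2 (-0.63, adjusted p = 6.6e-09), were lower as well. Of 18 tested members of the glycogen list 4 passed as higher and 4 as lower (44.4% called).

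Few genes of a list of HOX genes, their cofactors and developmental regulators of the kind that Polycomb keeps silent in stem cells were tested. Most of the tested ones were higher in the GSK3β line. Meis2, a HOX cofactor (chromosome 2, 115863064 to 116065839), had 4.003 and 4.51 in the GSK3α line and 11.7 and 12.1 in the GSK3β line, a log2 difference of 1.30 ± 0.098 (SE, adjusted p = 3.6e-09). Gata3 had 0.89 and 0.766 against 2.31 and 2.37, a log2 difference of 0.87 ± 0.15 (SE, adjusted p = 1.5e-04). Both were separated between the lines without overlap, as were 71.8% of all tested genes. Of 32 listed genes only 10 were tested, and 8 of them passed as higher and none as lower. These were 80% called, beside 47.6% of all genes, and the median of the 10 was 0.63. A filter on the mean lets a gene pass more easily when 1 line is high, so these counts are not those of the list. Of the 12 members under the filter, 9 had a higher mean in the GSK3β line and 3 a lower one, none with an untreated value above 1.22, and 10 had no value.

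Marker lists of other cell types were summed in each library. Pluripotency markers summed to 4846 and 4971 in the GSK3α line and 4797 and 4800 in the GSK3β line, which is near to equal. Neural markers summed to 374 and 379 against 484 and 478, a sum that takes in the X-linked Sox3 and whose rise was mostly that of Stmn2. Of the 11 autosomal members tested 4 passed as higher and none as lower (36.4% called, beside 47.6% of all genes). The neuronal microtubule regulator Stmn2 (151 and 149.97 against 228 and 214, a log2 difference of 0.55 ± 0.034 SE, adjusted p = 2.2e-10) and the neurofilament Nefl (27.6 and 26.7 against 38.9 and 39.3, a log2 difference of 0.51 ± 0.051 SE, adjusted p = 1.6e-07) led them, while Neurog2, Dcx and Olig2 had no value in any library and Sox1 and Pax6 were low and not called. Fibroblast and feeder markers summed to 626 and 649.8 against 765 and 720.5. Of the 9 members tested of 17 listed 5 passed as higher (8 with equal totals) and none as lower. Without the 1 member in a run 4 passed as higher. Calls made up 55.6% of the tested members, beside 47.6% of all genes. The sum of these markers was mostly Fn1 and Vim, which stem cells also express, while Col3a1, Postn, Lum and Dcn had no value. Vim, an intermediate filament gene, had 189 and 216 against 268 and 259, a log2 difference of 0.38 ± 0.046 (SE, adjusted p = 1.7e-06). Mesendoderm markers summed to 37.7 and 38.0 against 32.8 and 32.8, primitive endoderm markers to 613 and 628 against 558 and 623, and trophoblast markers to 145 and 145 against 140.3 and 155. Whether a share of differentiating cells takes part in the higher neural or developmental genes was not tested, and in bulk libraries more cells of a type and more RNA per cell cannot be told apart.

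Imprinted genes differed in both directions. Of 43 tested, 14 passed as higher and 12 as lower (15 and 7 with equal totals), and their median was -0.05. Calls made up 60.5% of the list, beside 47.6% of all genes. At the H19 and Igf2 locus the 2 neighbours went in opposite directions. H19 was lower as given above, and Igf2, the paternally expressed growth factor (chromosome 7, 142650766 to 142666816), had 2.98 and 2.81 in the GSK3α line and 5.67 and 6.09 in the GSK3β line, a log2 difference of 0.82 ± 0.11 (SE, adjusted p = 4.3e-06). At the Dlk1 and Dio3 locus the maternally expressed Meg3 had 68.8 and 75.8 against 48.3 and 46.2, a log2 difference of -0.60 ± 0.050 (SE, adjusted p = 1.4e-08), and the paternally expressed Dio3 had 1.69 and 2.13 against 6.96 and 5.96, 1.36. The other listed genes of that locus were the paternally expressed Dlk1 (0.55, higher) and Rtl1 (-0.25, not called) and the maternally expressed RNAs Rian (-0.34, lower) and Mirg (-0.60, lower). Both loci thus had maternal RNAs lower and paternal genes higher in the GSK3β line, apart from Rtl1. Other paternally expressed genes were higher, Mest (141 and 144 against 258 and 249.9, a log2 difference of 0.83 ± 0.035 SE, adjusted p = 1.0e-12) and Peg12 (4.09 and 4.04 against 9.11 and 9.14, a log2 difference of 0.998 ± 0.10 SE, adjusted p = 1.9e-07). The CDK inhibitor Cdkn1c, which is expressed from the maternal allele, was higher too (19.08 and 17.3 against 31.5 and 25.2, a log2 difference of 0.61 ± 0.081 SE, adjusted p = 6.1e-06). Direction did not follow the expressed allele across the list, since the paternally expressed Mcts2 (-0.61) and Nap1l5 (-0.58), picked after their values were seen, were lower. Allelic expression and DNA methylation were not measured, so which allele the reads came from was not tested.

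The enzymes that set and read DNA methylation differed in detail. Dnmt3l, the cofactor of de novo methylation, was lower, at 431 and 444 against 323 and 307, a log2 difference of -0.47 ± 0.032 (SE, adjusted p = 6.0e-10). Tet3, a 5-methylcytosine dioxygenase, was higher, at 8.5 and 9.91 against 14.6 and 15.3, a log2 difference of 0.65 ± 0.081 (SE, adjusted p = 2.7e-06). Gadd45g had 4.09 and 2.98 against 9.97 and 7.92, a log2 difference of 1.14 ± 0.14 (SE, adjusted p = 2.7e-06). Of 22 tested regulators, 7 passed as higher and 9 as lower (72.7% called, beside 47.6% of all genes). Of 22 tested germ cell genes that promoter methylation silences in somatic cells, 4 passed as higher and 7 as lower, which is near the shares over all genes (21.2% and 26.4%). Among the lower ones were Ddx4 (26.7 and 28.1 against 17.4 and 19.5, a log2 difference of -0.55 ± 0.062 SE, adjusted p = 8.0e-07) and Stra8 (15.3 and 14.8 against 10.4 and 9.42, a log2 difference of -0.56 ± 0.077 SE, adjusted p = 8.8e-06).

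In LIF signalling through STAT3, which sustains mouse embryonic stem cells, 9 of 18 tested genes were called (50%, against 47.6% of all genes), and the leading ones included feedback genes. Socs3 had 12.9 and 13 against 9.11 and 7.44, a log2 difference of -0.59 ± 0.093 (SE, adjusted p = 3.8e-05). Cish had 5.03 and 5.82 against 2.54 and 2.44, a log2 difference of -0.88 ± 0.11 (SE, adjusted p = 2.9e-06). Socs2 had 60.9 and 59.9 against 44.1 and 45.7, a log2 difference of -0.42 ± 0.042 (SE, adjusted p = 1.5e-07). All 3 suppressors were lower in both GSK3β libraries, and 71.8% of all tested genes were separated in 1 direction or the other. Stat3 (39.1 and 42.1 against 38.8 and 39, -0.06, 95% interval -0.19 to 0.07, adjusted p = 0.44) and the receptor Lifr (87 and 84.6 against 88.3 and 85.6, 0.02, 95% interval -0.06 to 0.10, adjusted p = 0.71) were not called. The related receptor Cntfr was higher (15.6 and 15.9 against 25.8 and 24.7, a log2 difference of 0.65 ± 0.063 SE, adjusted p = 1.0e-07), and of the 9 called members 3 were higher and 6 lower.

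Cell cycle brakes and p53 targets also separated the lines. Cdkn1a, the p21 inhibitor of CDKs (chromosome 17, 29090976 to 29100727), had 70.1 and 71.8 against 41.6 and 36.4, a log2 difference of -0.85 ± 0.053 (SE, adjusted p = 2.0e-10). Of 22 tested p53 targets, 11 passed as lower and 1 as higher, beside 26.4% and 21.2% of all genes. The list's median was -0.14, and without the 1 member in a run 10 passed as lower and 1 as higher. Trp53inp1 had 494 and 467 against 367 and 367, a log2 difference of -0.39 ± 0.032 (SE, adjusted p = 1.2e-08). Pmaip1, the death gene NOXA, had 64.6 and 71.8 against 54.4 and 52.7, a log2 difference of -0.34 ± 0.050 (SE, adjusted p = 1.9e-05). The 3 genes were lower without overlap, and 71.8% of all tested genes had no overlap. Of 25 tested cyclins, CDKs, CDK inhibitors and E2F and RB genes 13 passed as higher and 4 as lower, beside 21.2% and 26.4% of all genes, for example Cdkn2a (0.50, adjusted p = 1.2e-04), while E2f2 was lower (-0.46, adjusted p = 1.6e-04). Myc (34.7 and 42 against 37.4 and 37.2, -0.03, 95% interval -0.17 to 0.11, adjusted p = 0.72) and Mycn (129.8 and 134 against 130.4 and 129.9, -0.02, 95% interval -0.09 to 0.05, adjusted p = 0.71) were not called, and the sign of both differences turned under other scalings. Without the first untreated GSK3α library Myc passed as lower (-0.167, adjusted p = 0.044).

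Metabolic genes split by pathway. Of 34 tested glycolysis and HIF targets, 17 passed as lower and 5 as higher, beside 26.4% and 21.2% of all genes. The list's median was -0.13, and without the 1 member in a run 16 passed as lower and 5 as higher. Pdk1, which holds pyruvate back from the mitochondria (chromosome 2, 71873224 to 71903858), had 170.3 and 164 against 109.9 and 106, a log2 difference of -0.62 ± 0.038 (SE, adjusted p = 1.7e-10). The aldolase Aldoc had 5.34 and 5.83 against 2.85 and 2.18, a log2 difference of -0.91 ± 0.12 (SE, adjusted p = 4.3e-06). Ndrg1, also a target of hypoxia, was higher (15.4 and 15.2 against 22.7 and 24.9, a log2 difference of 0.60 ± 0.071 SE, adjusted p = 1.2e-06). Cholesterol and fatty acid synthesis leaned higher, with a median of 0.12. Calls made up 67.7% of this list, beside 47.6% of all genes. Of 31 tested members 3 passed as lower and 18 as higher (2 and 21 with equal totals). The desaturases Fads1 (50.8 and 54.2 against 71.6 and 72.7, a log2 difference of 0.45 ± 0.041 SE, adjusted p = 5.0e-08) and Fads2 (31.3 and 32.2 against 39.1 and 43.2, a log2 difference of 0.36 ± 0.052 SE, adjusted p = 1.4e-05) were among them, as was Cyp51 of sterol synthesis (72.7 and 77.2 against 98.2 and 93.6, a log2 difference of 0.35 ± 0.039 SE, adjusted p = 6.7e-07). Of 28 tested genes of the amino acid response under ATF4, 12 passed as higher and 5 as lower (17 and 4 with equal totals). That is 60.7% called, beside 47.6% of all genes. The transporter Slc1a4 (0.56, adjusted p = 1.4e-05) and Phgdh of serine synthesis (0.44, adjusted p = 2.5e-08) were among the higher ones.

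Adhesion and matrix genes differed in both directions. A difference of 1.5-fold was reached by 4 higher and 2 lower adhesion genes, and by 1 and 1 of the basement membrane and collagen genes. Itgb1, the common β1 subunit of matrix integrins on distal chromosome 8 (chromosome 8, 128685654 to 128733200), had 116 and 122 against 182 and 188, a log2 difference of 0.63 ± 0.034 (SE, adjusted p = 2.4e-11). N-cadherin, Cdh2, had 4.45 and 3.7 against 7.54 and 7.21, a log2 difference of 0.73 ± 0.10 (SE, adjusted p = 1.0e-05). The basement membrane gene Lamc1 had 257 and 245 against 340.3 and 348, a log2 difference of 0.46 ± 0.035 (SE, adjusted p = 4.3e-09). These were higher in the GSK3β line, whereas the laminin chain Lama1 (28.8 and 29.7 against 18.8 and 18.2, a log2 difference of -0.63 ± 0.060 SE, adjusted p = 7.0e-08) and agrin, Agrn (260.4 and 263 against 173 and 188, a log2 difference of -0.54 ± 0.036 SE, adjusted p = 7.8e-10), were lower. Of 25 tested adhesion genes 9 passed as higher and 6 as lower, and of 21 basement membrane and collagen genes 8 and 6. Calls made up 60% and 66.7% of these lists, beside 47.6% of all genes. Tfap2c, a trophoblast and germline factor also active in naive stem cells, was lower, at 44 and 45 against 22.7 and 28.3, a log2 difference of -0.79 ± 0.075 (SE, adjusted p = 8.2e-08). In Hedgehog signalling 7 of 14 tested genes passed as higher and 4 as lower (78.6% called, beside 47.6% of all genes). Without the 4 members in runs 5 passed as higher and 2 as lower.

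**Figure D4:**
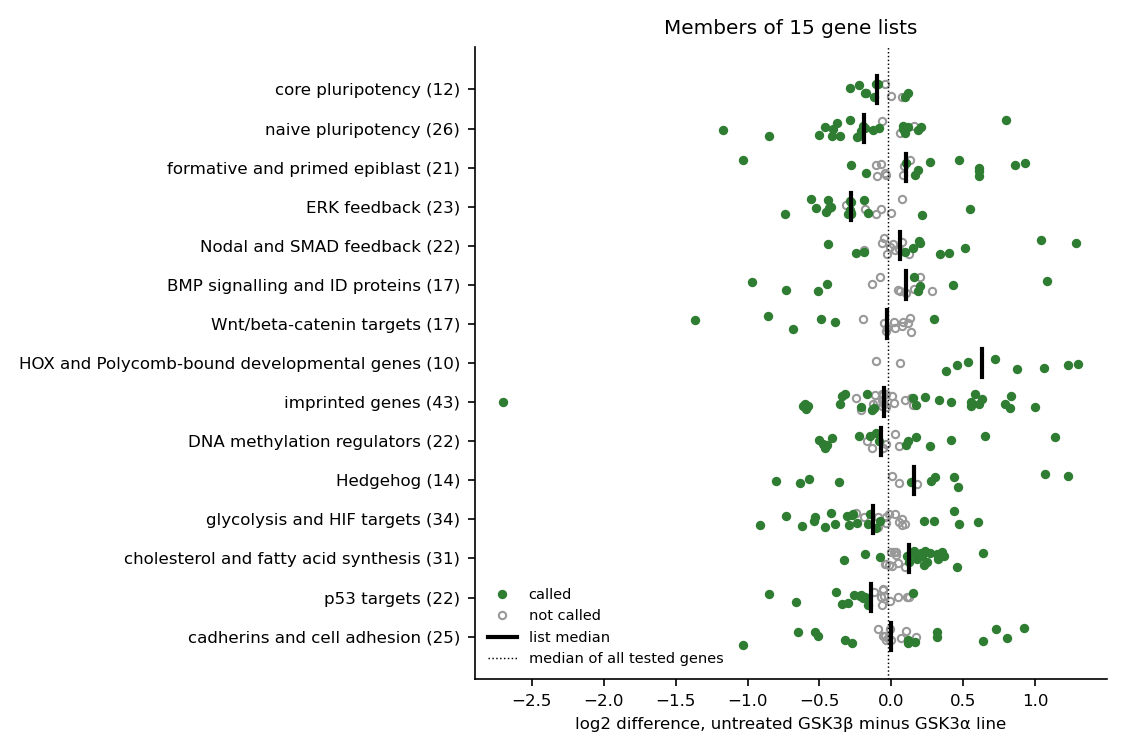
Log2 differences (GSK3β minus GSK3α line, untreated) of the tested members of 15 lists, filled where past the threshold, with each list's median as a bar and the median of all tested genes as a dotted line. ERK feedback (median -0.28) and naive pluripotency (-0.19) lay to the left of the dotted line at -0.02, and the tested HOX and Polycomb-bound genes (0.63) to its right. The last median covers only 10 of 32 listed genes, and the filter on the mean is passed more easily by a gene that is high in 1 line.

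The same contrast between the lines was available in the 4 libraries with 3MB-PP1, which share no library with the untreated comparison. There 6481 genes (48.6%) passed, 2700 (20.2%) higher and 3781 (28.4%) lower. With equal totals the split was 3272 and 3179, and with median-of-ratios scaling 3298 and 3150. Of the 6342 genes called untreated, 5813 (91.7%) had the same sign with the inhibitor and 4336 (68.4%) passed in the same direction. Of the 753 past 1.5-fold these were 721 (95.8%) and 649 (86.2%). Across the 13335 genes the 2 differences had a Pearson correlation of 0.787 and a Spearman correlation of 0.744, a description over genes that are not independent.

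Differences of single genes and of the runs were mostly as large with the inhibitor. The runs had medians of -0.56 on chromosome 19, -0.51 on chromosome 7, 0.91 on chromosome 13, 0.52 on chromosome 14 and -0.28 on chromosome 4. H19 had 36.8 and 38.4 in the GSK3α line and 5.49 and 5.17 in the GSK3β line, a difference of -2.61, and Smc1b had 13.8 and 13.7 against 63.5 and 61.9, a difference of 2.11. Gsk3b differed by 2.21 and Gsk3a by -0.84. Of the 30 genes named for the largest untreated differences, 15 in each direction, 29 passed in the same direction with the inhibitor. The exception was Mobp, with 6.84 and 6.77 in the GSK3α line and 6.39 and 5.72 in the GSK3β line (-0.15, adjusted p = 0.24, interaction 1.03, adjusted p = 1.5e-04). ERK feedback had a median of -0.27, near its untreated one. The tested HOX and Polycomb-bound genes had a median of 0.62, beside 0.63 untreated. The filter on the mean used all 8 libraries, so the inhibitor libraries helped to choose these genes and the 2 medians are not independent.

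Other baseline differences were smaller or turned with the inhibitor, and this change was tested as an interaction. It passed for 880 genes (6.60%), 107 of them among the 753. Lefty1 had 8.86 and 9.45 in the GSK3α line and 7.83 and 8.86 in the GSK3β line with the inhibitor, a difference of -0.12, and the interaction was -1.405 (adjusted p = 6.2e-08). Lefty2 kept its difference (1.16) with both lines at lower values, 23.9 and 22.9 against 54 and 53. Pou3f1 turned from higher to lower (-0.39, interaction -1.25, adjusted p = 1.9e-05), as did Fgf5 (-0.54, interaction -1.14, adjusted p = 3.3e-04). Among the lists, naive pluripotency had a median of 0.10 in the inhibitor libraries against -0.19 untreated, and formative and primed genes one of -0.15 against 0.10. Both list medians thus had the opposite sign with the inhibitor. Untreated, members of each list passed in both directions, and an order of the lines from naive to formative was not tested.

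**Figure D5:**
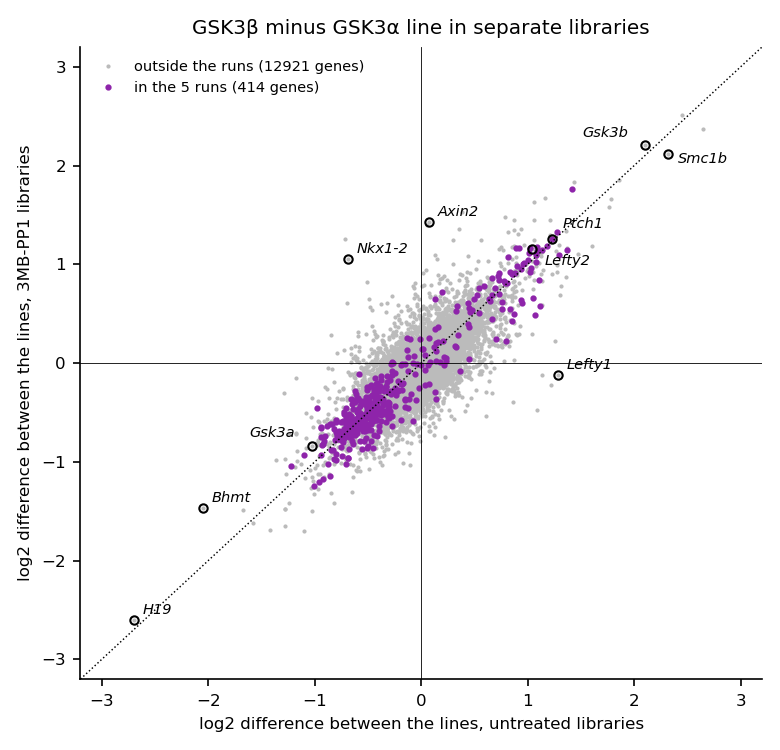
Log2 difference between the lines in the untreated libraries (x axis) and in the 3MB-PP1 libraries (y axis) for the 13335 tested genes, with the 414 genes of the 5 runs in purple and equality as a dotted line. H19, Gsk3b, Smc1b and Ptch1 lie near the dotted line, Bhmt (-2.05 untreated, -1.47 with the inhibitor) and Gsk3a (-1.02 and -0.84) lie off it towards 0, and Lefty1, Axin2 and Nkx1-2 lie farther away.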

How the data were processed

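RNA-seq of total RNA was analysed in 8 libraries, 2 in each of 4 groups, and the 4 untreated ones were compared. The authors' deposited table holds a gene-level signal, estimated gene counts scaled so that the third quartile is nearly equal in every library. TopHat2 and Partek and the build mm10 are named in the submitters' processing notes, without versions, and the strand setting is not given in the sources used here. The values are not raw counts, so the count test first planned was not used as the main one. Values were tested as log2(value + 1) with limma 3.58.1 in R 4.3.3 (trended variance, 4 group means, 4 residual degrees of freedom) for 13959 genes with a mean of at least 1, with Benjamini-Hochberg adjustment over all of them at 0.05, and autosomal genes were kept. The code was tested on simulated data. Intervals cover 95%. No column belonged to another sample, that is 0 such columns. Symbols were placed by GENCODE M21 (13540 genes) and RefSeq (6 more by symbol and 314 by synonym). Depth was estimated from the smallest value in each library, taken as 1 read.

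Named genes were Gsk3a and Gsk3b, the 15 largest differences in each direction among called genes whose libraries did not overlap and whose higher group had a mean of at least 5 (numbered models left out), up to 4 members of each of 39 lists with the largest called differences, and a fixed set of 36 genes, of which Cdx2 and Gata6 fell under the filter. Results for some of these genes are not reported here. The members and lists were chosen with earlier results of these data known. Alternatives were other pseudocounts, filters and scalings, limma without a trend, the 4 untreated libraries alone, a replicate block and leaving out each library.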

Additional observations from a re-analysis of the deposited data

Results flagged for a closer look

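At 53 of the 191 named genes the difference between the lines in the untreated libraries was not the one with 3MB-PP1, by limma's interaction term after Benjamini-Hochberg adjustment over all tested genes (6.60% of the autosomal genes passed it). The named genes were chosen in large part by their untreated differences, and the interaction uses the same untreated libraries. Their share is therefore not comparable with that of all genes. Of the 53 flagged genes, the 50 reported here are given below. The number beside each gene is the difference with the inhibitor minus the untreated difference, on the log2 scale, so a positive one moved towards the GSK3β line. No explanation was tested.

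Values moved towards the GSK3β line for the β-catenin targets Nkx1-2 (1.73), Axin2 (1.35) and Sp5 (1.14). Untreated, Axin2 was not called (0.07), and with the inhibitor it differed by 1.43, with 14.5 and 13.9 in the GSK3α line and 38.4 and 41.3 in the GSK3β line. Changes of at least 0.8 the same way were also seen at Cdkn1a (1.14), Mobp (1.03), Tfap2c (0.89) and Id3 (0.86). At Id3 the untreated difference of -0.73 became 0.13, and at Cdkn1a -0.85 became 0.29. Smaller changes in this direction were those of Tfcp2l1 (0.71), Nupr1 (0.65), Col4a1 (0.63), Bhmt (0.57), Klf4 (0.53), Klf2 (0.49), Lama1 (0.49), St8sia6 (0.47) and Ak4 (0.45). The smallest were those of Nefl (0.44), Tubb3 (0.37), Lamc1 (0.26), Esrrb (0.25), Nodal (0.21), Sall4 (0.19), Gsk3a (0.19) and Igf2bp2 (0.17).

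Values moved towards the GSK3α line most at Lefty1 (-1.405), Gadd45g (-1.26), Pou3f1 (-1.25), Fgf5 (-1.14), Dusp6 (-0.92) and Cdkn1c (-0.91). These included the Nodal antagonist Lefty1 and the formative genes Pou3f1 and Fgf5, whose untreated differences were 1.28, 0.86 and 0.61 and whose differences with the inhibitor were -0.12, -0.39 and -0.54. Dusp6 was not called untreated (-0.11) and differed by -1.03 with the inhibitor. Changes of intermediate size were those of Dll1 (-0.74), Fgf4 (-0.66), Fgf15 (-0.65), Apom (-0.61), Mxd3 (-0.57), Cldn3 (-0.54), Trim12c (-0.54), Klf6 (-0.53), Mxd4 (-0.47), Cldn6 (-0.47) and Bst2 (-0.46). The remaining ones were those of Arhgdib (-0.42), Mest (-0.39), Spry4 (-0.38), Myc (-0.38), Cyp51 (-0.36), Dnmt3l (-0.34), Otx2 (-0.25), Stmn2 (-0.23) and Dnmt3b (-0.17).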

How the results depend on the processing

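Pseudocount and filter set how many genes reach 1.5-fold. With a pseudocount of 0.25, 604 genes were lower by at least 1.5-fold, with one of 5, 119 were higher and 170 lower, and with a mean of at least 5, 209 were higher. The other 132 recomputed counts and values for Gsk3a and Gsk3b under the alternatives listed for these data stayed within 1.5 times or on their side of the threshold. Within that margin the balance past 1.5-fold turned, to 415 higher and 297 lower with equal totals and 364 and 358 with median-of-ratios scaling. Leaving out 1 library at a time, which leaves an arm with 1 sample assumed to vary like the other groups, gave 2313 to 2747 higher and 2865 to 3428 lower genes, 351 to 386 and 401 to 452 of them by at least 1.5-fold. With the inhibitor it gave 2052 to 2806 and 2881 to 3935. Gsk3a ranged from -1.05 to -1.003 and Gsk3b from 2.04 to 2.16. The sign turned for genes that were not called. With equal totals Myc was 0.017 and Mycn 0.034, and with median-of-ratios scaling Mycn was 0.00060. Leaving out 1 library at a time, Myc ranged from -0.167 (called, adjusted p = 0.044, without the first untreated GSK3α library) to 0.102, Mycn from -0.037 to 0.0043 and Lifr from -0.0033 to 0.041, and without the second untreated GSK3α library Lifr was -0.00092. The cause was not tested. Replicate numbers did not pair the samples (correlations of deviations 0.020 untreated and 0.012 with inhibitor). A replicate block gave 2783 higher and 3485 lower genes, 352 and 401 of them by at least 1.5-fold, 2672 and 3752 with the inhibitor, and values of -1.02 for Gsk3a and 2.10 for Gsk3b. It ended the calls of Klf2 and Acta2 among the named genes. Chosen after seeing the data, a crossed block gave 2775 and 3451, and without the runs 298 and 281 genes reached 1.5-fold. With 31 genes in the running median chromosome 14 held no run, and with a size of 0.2 chromosome 4 held several and chromosome 8 had 1 of 21 genes. With 2 libraries of 1 clone a side, no unmodified line and values that are scaled, a change of total RNA or a gene silent in both lines could not be seen.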

Other observations

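Gene groups without a part in the comparisons above differed in both directions. Of 21 tested interferon response genes and class I genes of the major histocompatibility complex, 5 passed as higher and 8 as lower in the untreated GSK3β line, with Bst2, a membrane tether of viruses, at 20.4 and 19.4 in the GSK3α line against 11.6 and 9.68 in the GSK3β line (-0.85, adjusted p = 7.2e-08) and the apoptosis factor Xaf1 at 11.2 and 12.9 against 17.2 and 18.2 (0.53, adjusted p = 2.9e-05). Heat shock genes passed equally often as higher and as lower, 6 of 20 each, and so did targets of NRF2 and metallothioneins, 9 of 23 each. Nuclear-encoded respiratory genes passed as higher at 10 of 32 and as lower at 4. Of 21 Hippo and YAP genes 10 passed as higher and 3 as lower. In insulin, AKT and FOXO signalling 9 of 29 passed as higher and 4 as lower, led by the adaptor Irs2 (11.1 and 11.6 against 18.3 and 19.4, 0.68, adjusted p = 2.0e-07). Notch genes passed as higher at 5 of 18 and as lower at 6, with the ligand Dll1 at 0.65 and the modifier Lfng at -0.64. Markers of the rare state of stem cells that resembles the 2-cell embryo passed as higher at 5 of 21 and as lower at 4. Over all autosomal genes 47.6% passed.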
